A study of Mus musculus with 27 samples.

Results

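Endoderm cells made up 134 of the 4637 single cells recovered from 15 mouse gastruloids, or 2.89% (95% Wilson interval 2.45 to 3.41). They are the cells that the authors' table of values per cell places in Leiden cluster 9 of 13 clusters and names Endoderm. Gastruloids are aggregates of mouse embryonic stem cells (mESCs) that, after a pulse of the Wnt pathway activator chiron, break symmetry and form derivatives of the germ layers without an embryo. All gastruloids came from 1 wild-type hybrid line, B6 (129S1/SvImJ / C57BL/6), and differed in the pre-culture of the mESCs. Condition 1 was ESLIF medium only, which holds serum and leukaemia inhibitory factor. Condition 5 was 48 h of 2i, a serum-free medium with inhibitors of GSK3 and MEK, followed by 48 h of ESLIF. Condition 6 was 24 h of 2i followed by 24 h of ESLIF. In all 3 conditions chiron was given from 48 to 72 h and gastruloids were collected at 120 h after aggregation. Of each condition 5 gastruloids were profiled, named 1A to 1E, 5A to 5E and 6A to 6E, each sorted as live cells into one 384-well plate and sequenced with CEL-seq2, which tags the 3′ end of transcripts in single wells. A gastruloid and its plate therefore cannot be told apart, and nothing in the sources used here gives separate mESC cultures, so p-values measure the spread between gastruloids only. The labels number the plates in blocks by condition, with condition 6 split around the others, so condition also goes with plate order.

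Definitive endoderm is the germ layer that lines the gut and gives rise to liver, pancreas and lung, and in the embryo its cells leave the primitive streak and join the outer epithelium of the embryo. The transcription factors Sox17 and Foxa2 are needed for its formation, and the adhesion molecule Epcam and the tight junction protein Cldn6 are expressed in epithelial cells, the endoderm among them. PGC-like cells resemble primordial germ cells, the precursors of sperm and egg. NMP/Caudal Epiblast cells resemble the neuromesodermal progenitors of the tail end, which give rise to spinal cord and somites. Allantois, in the embryo, is an extraembryonic mesoderm derivative that forms part of the umbilical cord. Gene values were not analysed here, so Sox17, Foxa2, Epcam and Cldn6 could not be checked in the cluster, and the name Endoderm rests on the authors' annotation alone.

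The gastruloids held 261 to 348 cells each, with a median of 7110 to 12136 counts per cell in a gastruloid. No cell name was found 2 times among the 4637 cells. The Endoderm cells spanned 630 to 28818 counts, with a median of 9620 and quartiles of 7010 and 13475. They held 577 to 7545 detected genes, with a median of 4543. The share of mitochondrial transcripts in single Endoderm cells ran from 0.140% to 10.2%, with a median of 5.47% and quartiles of 4.63% and 6.32%. The authors had already removed cells of low quality. Of the Endoderm cells left, 2 lay under 1000 counts, 1 lay over 10% mitochondrial transcripts and 5 lay under 1%. The cluster was cut from transcripts of the same cells that give these values, after the authors had left out mitochondrial, Malat1 and ribosomal reads. The authors regressed counts, mitochondrial percentage and cell cycle phase out before clustering and did not state that cell cycle genes were removed, so differences from other clusters in these measures are not fully independent of how the cells were grouped.

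The first question was how Endoderm cells were spread over gastruloids and whether the pre-culture moved their share. Every gastruloid held at least 1 Endoderm cell, and the share ranged from 0.383% to 7.44%. In condition 1, Endoderm cells were 23 of 309 cells in 1A (7.44%), 8 of 305 in 1B (2.62%), 5 of 298 in 1C (1.68%), 19 of 302 in 1D (6.29%) and 7 of 315 in 1E (2.22%). In condition 5, they were 14 of 316 cells in 5A (4.43%), 7 of 348 in 5B (2.01%), 1 of 261 in 5C (0.383%), 8 of 298 in 5D (2.68%) and 8 of 309 in 5E (2.59%). Gastruloids 1A and 1D stood above the other 13 gastruloids, and together they held 42 of the 62 Endoderm cells of condition 1 (67.7%). In condition 6, Endoderm cells were 7 of 318 in 6A (2.20%), 4 of 296 in 6B (1.35%), 3 of 321 in 6C (0.935%), 9 of 316 in 6D (2.85%) and 11 of 325 in 6E (3.38%). The ranges of all 3 conditions overlapped.

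**Figure D1:**
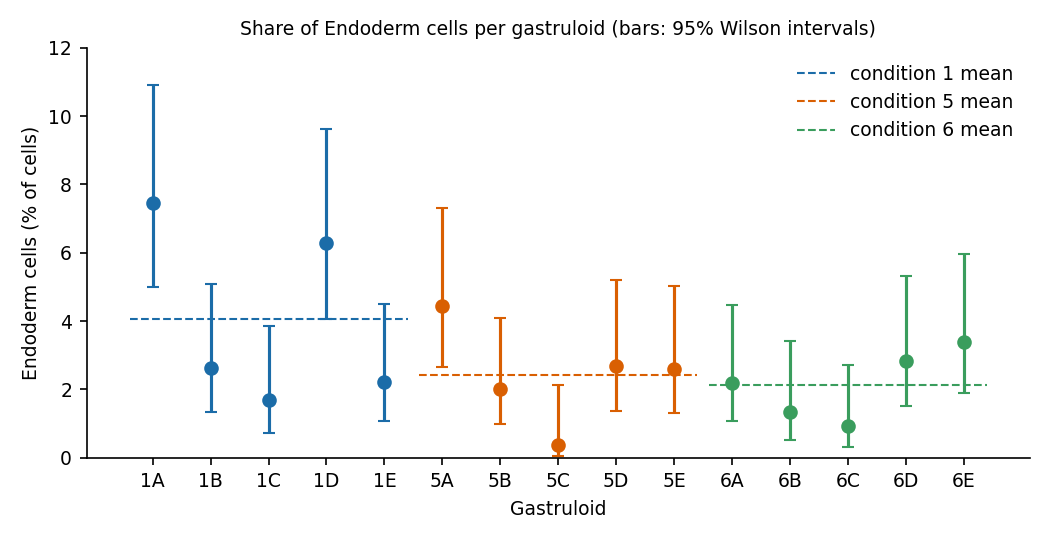
The percent of cells that are Endoderm (y axis) in each of the 15 gastruloids (x axis), coloured by condition, with 95% Wilson intervals as bars and the mean of each condition as a dashed line. Gastruloids 1A at 7.44% and 1D at 6.29% lie above all others, and 5C at 0.383% lies lowest.

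Gastruloids of condition 1 averaged 4.05% ± 2.62 Endoderm cells, those of condition 5 averaged 2.42% ± 1.45 and those of condition 6 2.14% ± 1.02 (SD over 5 gastruloids). Counting alone would give an SD of 1.13 points for condition 1, 0.892 for condition 5 and 0.819 for condition 6, below the measured SD in each. Whether the measured spread exceeds counting was not tested. Condition 1 exceeded condition 5 by 1.63 points in the mean (96.8% interval of the rank-based shift −1.81 to 5.43, exact two-sided rank-sum test, p = 0.548, times 3 = 1). It exceeded condition 6 by 1.91 points (interval −1.16 to 5.36, exact p = 0.310, times 3 = 0.929), and condition 5 exceeded condition 6 by 0.276 points (interval −1.82 to 2.23, exact p = 1). The direction of the last difference turned without 5A (−0.227 points) or 6C (−0.0266 points). Without 1A the excess of condition 1 was 0.784 points over condition 5 and 1.06 points over condition 6, and without 1D it was 1.07 points over condition 5. No difference in the share was called, where 5 gastruloids against 5 could have reached 0.0238 after multiplication by 3. The intervals leave room for differences as large as the mean share itself.

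The count depends on which cells are taken as endoderm. The deposited germ layer column puts 96 Allantois cells in its endoderm class with the 134 Endoderm cells. With that class the share in condition 1 exceeded that in condition 6 by 4.79 points (exact rank-sum test, p times 3 = 0.0238), a difference that the Endoderm cells alone did not show.

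Gastruloids with many Endoderm cells tended to hold many PGC-like cells, though the pooled tests given below were not called. The share of PGC-like cells among all cells that are not Endoderm was used, so that the shares do not compete for the same total. In condition 1 it was 12.2% in 1A, 2.02% in 1B, 3.07% in 1C, 16.6% in 1D and 6.49% in 1E. In condition 5 it was 13.6% in 5A, 11.1% in 5B, 4.62% in 5C, 7.93% in 5D and 12.3% in 5E, and in condition 6 it was 10.6% in 6A, 7.88% in 6B, 8.18% in 6C, 10.4% in 6D and 11.8% in 6E. The lowest Endoderm shares of conditions 5 and 6, in 5C and 6C, went with PGC-like shares that were lowest or nearly lowest in their condition.

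Over the 15 gastruloids, Pearson's r between the Endoderm and PGC-like shares was 0.653 (permutation p = 0.00764, adjusted 0.0611 over the 8 cell types compared) and Spearman's rho was 0.632 (permutation p = 0.0139, adjusted 0.111). As deviations from the condition means, with shares permuted within conditions, r was 0.861 (permutation p = 0.00261, adjusted 0.0209), and r was positive in 3 of 3 conditions. Gastruloids 1A and 1D lay farthest from the median Endoderm share. Without them r was 0.552 over the other gastruloids and 0.757 within conditions (permutation p = 0.0107). That p-value was not adjusted over the 8 cell types, so it does not show that the relation passes the correction without 1A and 1D. With all 15 gastruloids the relation passed the correction within conditions but not pooled. The shares of the other 7 cell types gave no relation past the correction, and the nearest was NMP/Caudal Epiblast with r = −0.652 within conditions (permutation p = 0.0484, adjusted 0.193). The comparison was chosen after the shares were seen.

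**Figure D2:**
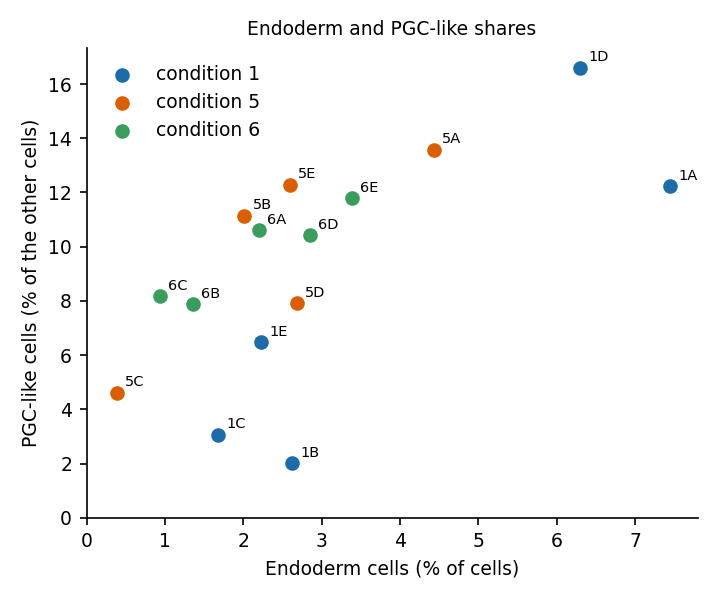
Endoderm cells as percent of all cells (x axis) against PGC-like cells as percent of the cells that are not Endoderm (y axis), 1 point per gastruloid, coloured by condition. Points with more Endoderm tend to lie higher, from 5C at 0.383% and 4.62% to 1D at 6.29% and 16.6%.

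The next question was whether Endoderm cells differ in content from the other cells of their own gastruloid. The 14 gastruloids with at least 3 Endoderm cells were used, which leaves out 5C with its 1 cell. For each, the Endoderm median was set against the median of all its other cells. Endoderm cells held somewhat more genes, and slightly more genes than other cells at equal counts. That last difference alone passed the correction over 9 measures.

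Median counts per Endoderm cell ran from 7557 in 1D to 16543 in 5D, with a mean over gastruloids of 10184 ± 2428, against 9167 ± 1482 in other cells (SD, n = 14). The fold was 1.10 (95% interval 0.965 to 1.248), higher in 10 of 14 gastruloids (exact sign-flip test, p = 0.143, adjusted 0.323). The fall was largest in 6B, from 12158 in other cells to 8369 in its 4 Endoderm cells. The rise was largest in 5D, from 9664 to 16543, so the direction was not shared.

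Median genes per Endoderm cell were 4648 ± 531 against 4305 ± 384 in other cells, 1.08-fold (interval 1.01 to 1.15), higher in 12 of 14 gastruloids (exact sign-flip test, p = 0.0319, adjusted 0.0956). The adjusted value missed the threshold with all 14 gastruloids and passed it without 6B (0.0220). To compare cells of equal depth, the log2 number of genes was fitted on log2 counts in the other cells of each gastruloid, and Endoderm cells were placed against that curve. They lay 0.03 ± 0.02 above it on the log2 scale, which is 1.02-fold (interval 1.01 to 1.03), higher in 13 of 14 gastruloids (exact sign-flip test, p = 0.000366, adjusted 0.00330). Placed in the same way against all other cells, NMP/Caudal Epiblast cells lay 1.01-fold above, higher in 14 of 14 gastruloids. Early Somite cells lay at 1.005-fold (higher in 15 of 15) and Somite cells at 1.004-fold (higher in 13 of 15). PGC-like cells lay at 0.984-fold, below in 15 of 15, and Differentiation Front cells at 0.984-fold, higher in 1 of 14. An excess of genes at equal counts was thus not particular to Endoderm cells.

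The median mitochondrial share was 5.42% ± 0.792 in Endoderm cells and 5.01% ± 0.366 in other cells. The difference was 0.407 ± 0.598 points (interval 0.0555 to 0.754), higher in 11 of 14 gastruloids (exact sign-flip test, p = 0.0234, adjusted 0.0956). It ran from −0.688 points in 6A to 1.38 points in 1D, and the adjusted value passed the threshold without 6A (0.0110). Among 10 cell types with enough cells, Endoderm ranked 2 in the mitochondrial share, after Early Somite, 3 in genes per cell and 4 in counts. PGC-like cells ranked 1 in counts and genes, and Allantois cells came last in all 3 measures.

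**Figure D3:**
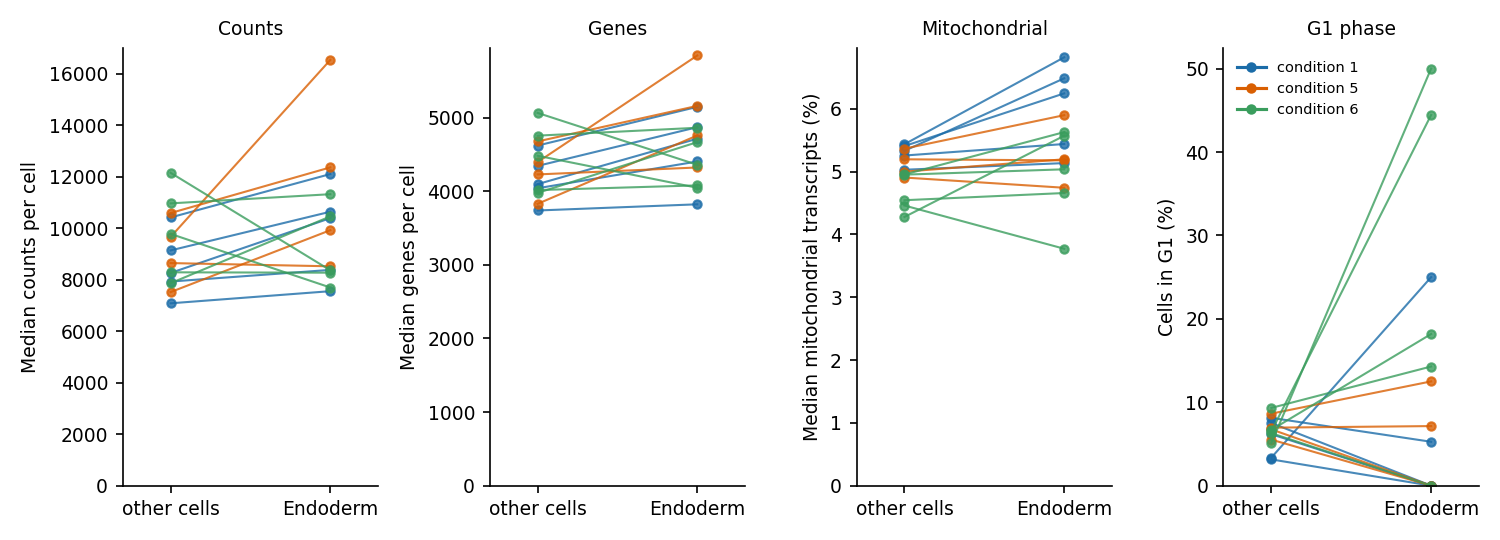
Median counts, median genes, median mitochondrial share (%) and percent of cells in G1 (y axes) in the other cells and in the Endoderm cells (x axes) of the same gastruloid, 1 line per gastruloid, for the 14 gastruloids with at least 3 Endoderm cells, coloured by condition. Lines for genes mostly rise (12 of 14), while those for G1 fan out from a narrow range of 3.15 to 9.32% in other cells to 0 to 50% in Endoderm cells.

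Most Endoderm cells were assigned to S or G2M. The deposited phase follows from both cell cycle scores in all 4637 cells: G1 where both are below 0, otherwise the phase with the higher score. Of the 134 Endoderm cells, 14 were in G1 (10.4%), 73 in S (54.5%) and 47 in G2M (35.1%), against 6.40%, 56.6% and 37.0% of the other 4503 cells. The calls rest on scores and do not measure division.

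Within gastruloids no difference in phase between Endoderm and other cells passed the correction. The G1 share was higher by 6.19 ± 17.1 points (interval −3.28 to 16.2, exact sign-flip test, p = 0.228, adjusted 0.342), and it was higher in 7 and lower in 7 of 14 gastruloids. With each other cell type given equal weight the G1 difference turned to −4.92 points (exact test, adjusted p = 0.404). The G2M share was lower, at −6.81 ± 19.5 points (interval −18.2 to 4.60, exact p = 0.211, adjusted 0.342), and the S share differed by 0.621 ± 18.1 points (interval −9.80 to 11.2, exact p = 0.901). The mean S score was 0.0364 ± 0.0140 in Endoderm and 0.0361 ± 0.00315 in other cells, and the mean G2M score was 0.0191 ± 0.0211 against 0.0234 ± 0.00434. The wide intervals go with 3 to 23 Endoderm cells per gastruloid.

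The phase of Endoderm cells varied between gastruloids. With 23 Endoderm cells or fewer in each, small counts alone give a wide spread, and the spread was not tested against counting. In condition 1, 13 of 23 Endoderm cells of 1A and 11 of 19 of 1D were in G2M, and 3 of the 62 cells of the condition were in G1. In condition 5, 12 of 14 cells of 5A and 7 of 8 of 5E were in S, and 2 of 38 cells were in G1. In condition 6, 9 of 34 cells were in G1, among them 4 of 9 in 6D, 2 of 4 in 6B, 2 of 11 in 6E and 1 of 7 in 6A, while 6C had none among 3. Other cells of the condition 6 gastruloids were in G1 at 6.79% ± 1.54, and their Endoderm cells at 25.4% ± 21.1 (SD, n = 5).

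Whether the Endoderm difference itself changes with the pre-culture was tested for 9 measures and 3 pairs of conditions. None of the 27 differences was called (exact two-sided rank-sum test with Benjamini-Hochberg adjustment, lowest adjusted p = 0.631), and 0 had an unadjusted p under 0.05. The lowest p, 0.111, was shared by genes per cell and the G1 share, both for condition 5 against condition 6 (exact rank-sum test). Endoderm cells differed from other cells in genes by 0.22 ± 0.17 on the log2 scale for condition 5 (n = 4) and by −0.02 ± 0.17 for condition 6 (n = 5). In the G1 share they differed by −2.05 ± 4.97 points for condition 5 and by 18.6 ± 21.9 points for condition 6, and the interval of that contrast was −50.4 to 6.48 points.

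**Figure D4:**
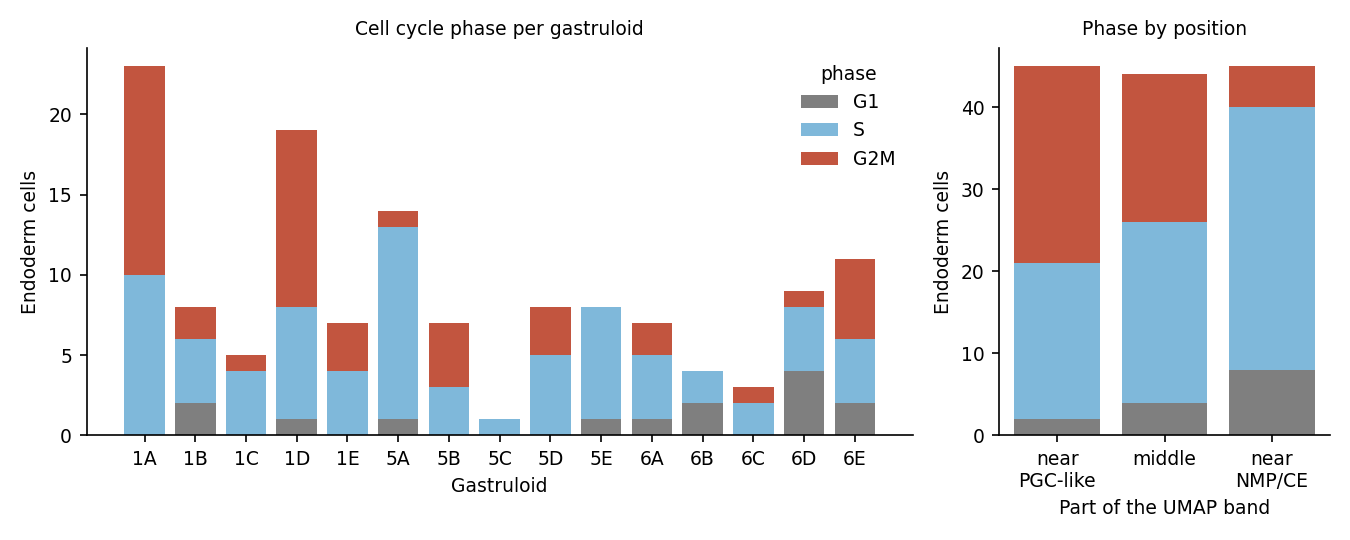
Left, Endoderm cells (y axis, number) in each gastruloid (x axis), stacked by cell cycle phase. Right, the same for 3 parts of the band that Endoderm cells form on the UMAP, from the end nearer PGC-like cells to the end nearer NMP/Caudal Epiblast (NMP/CE) cells. Pooled over gastruloids, G2M cells number 24, 18 and 5 and G1 cells 2, 4 and 8.

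Closer comparisons within the same gastruloids were made with PGC-like and NMP/Caudal Epiblast cells, which border the Endoderm cells on the UMAP, and Allantois cells, which share their deposited germ layer class. Of 27 differences, 13 passed the correction, with 3 against PGC-like, 3 against NMP/Caudal Epiblast and 7 against Allantois cells.

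Against PGC-like cells, Endoderm cells scored lower for the cell cycle. Among the 10 cell types ranked, PGC-like cells came 1 in S score and 2 in G2M score, and Endoderm cells 6 and 5. In the G1 share Endoderm ranked 3, PGC-like 9 and NMP/Caudal Epiblast 10. Against all other cells neither score was called (exact sign-flip test, adjusted p = 0.943 for S and 0.537 for G2M). The mean S score differed by −0.0175 ± 0.0152 and was lower in 12 of 14 gastruloids (exact sign-flip test, adjusted p = 0.00439). The mean G2M score differed by −0.0188 ± 0.0226, and was lower in 10 of 14 (exact test, adjusted p = 0.0211). The G1 share was 10.8 ± 16.3 points higher, in 8 of the 9 gastruloids where it differed (exact test, adjusted p = 0.0211), and this call was lost with a minimum of 1000 counts per cell (9.998 points, exact test, adjusted p = 0.0563). Among cells matched within 1.5-fold in counts, the S score difference was still called (−0.0163, exact test, adjusted p = 0.0137), while the G2M score (−0.0131, adjusted p = 0.0679) and the G1 share (6.53 points, adjusted p = 0.127) were not. Endoderm cells had 0.851-fold the counts of PGC-like cells (exact test, adjusted p = 0.0541), which passed without 1A (0.0452), 5D (0.0264) or 6C (0.0396). Genes at matched counts were 1.02-fold, higher in 13 of 14 gastruloids without being called (exact test, adjusted p = 0.120), and passed without 1B (0.00659). Among cells of matched counts, genes were 0.03 higher on the log2 scale (exact test, adjusted p = 0.0483).

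Against NMP/Caudal Epiblast cells, counts and genes per cell were close. Counts were 0.966-fold (exact sign-flip test over 13 gastruloids, adjusted p = 0.765) and genes 1.00-fold (adjusted p = 0.979). At matched counts Endoderm cells held 1.01-fold the genes, higher in 11 of 13 gastruloids (exact test, adjusted p = 0.00659), but among cells chosen for matched counts genes differed by 0.00320 on the log2 scale and were not called (exact test, adjusted p = 0.880). Their mitochondrial share was 0.474 ± 0.573 points higher, in 11 of 13 (exact test, adjusted p = 0.0294), and their G1 share 11.9 ± 17.6 points higher (exact test, adjusted p = 0.0325). The mitochondrial call was lost without 1B, 1E, 5A or 6D, with exact adjusted p up to 0.0538. The G1 call was lost without any 1 of 1B, 5A, 5E, 6A, 6B, 6D and 6E, with exact adjusted p up to 0.0649, and it was also lost with a minimum of 1000 counts (adjusted p = 0.0563). Both were lost with at least 5 cells of each type (exact adjusted p = 0.0649 each) and among cells of matched counts (adjusted p = 0.127 each).

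Against Allantois cells 7 of the 9 differences were called. Endoderm cells had 1.86-fold the counts and 1.49-fold the genes, and 5.04 ± 0.906 points more mitochondrial transcripts, each higher in 11 of 11 gastruloids (exact sign-flip test, adjusted p = 0.00439). The comparisons of genes at equal counts disagreed. Placed against the fitted curve, Endoderm cells held 0.995-fold the genes, higher in 6 and lower in 5 (exact test, adjusted p = 0.934). Among cells of matched counts genes were 0.08 higher on the log2 scale and were called (exact test, adjusted p = 0.0410). The S score was 0.0481 ± 0.0155 higher and the S share 49.1 ± 20.2 points higher, both in 11 of 11 (exact test, adjusted p = 0.00439), and the G1 share differed by −49.3 ± 23.9 points and was lower in 10 of 11 (exact test, adjusted p = 0.00659). The G2M share differed by 0.267 ± 22.9 points, higher in 6 and lower in 4 (exact test, adjusted p = 0.979). The G2M score was 0.0237 ± 0.0250 higher (exact test, adjusted p = 0.0325), a call lost without any 1 of 1B, 1C, 1D, 1E, 5A, 5B and 5E (adjusted p up to 0.0615) and among cells of matched counts (adjusted p = 0.682). Among cells of matched counts the mitochondrial share, S score and S share were still called, at 5.25 points, 0.0512 and 54.8 points, and the G1 share was not (−40.1 points, exact test, adjusted p = 0.0586). Of the Allantois cells, 91 of 96 lay under 1% mitochondrial transcripts, and of the Endoderm cells 5 of 134, with 2 in 6E and 1 each in 5A, 6A and 6D. The deposited germ layer class thus joined cells that differed in counts and mitochondrial share in all 11 gastruloids compared.

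On the authors' UMAP, a map that places cells of similar transcripts near each other, Endoderm cells formed a narrow band from the PGC-like cells to the NMP/Caudal Epiblast cells. UMAP and clusters come from the same transcripts, so the position is a description. Of the 2010 places among the 15 nearest neighbours of Endoderm cells, 1880 (93.5%) were taken by Endoderm cells, 64 (3.18%) by PGC-like, 64 (3.18%) by NMP/Caudal Epiblast and 2 (0.0995%) by Allantois cells. No cell of the other 7 types was a neighbour. All 15 neighbours were Endoderm in 99 of the 134 cells, 8 to 14 in 30 cells and under 8 in 5 cells. PGC-like neighbours were spread over 24 Endoderm cells and NMP/Caudal Epiblast neighbours over 14.

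**Figure D5:**
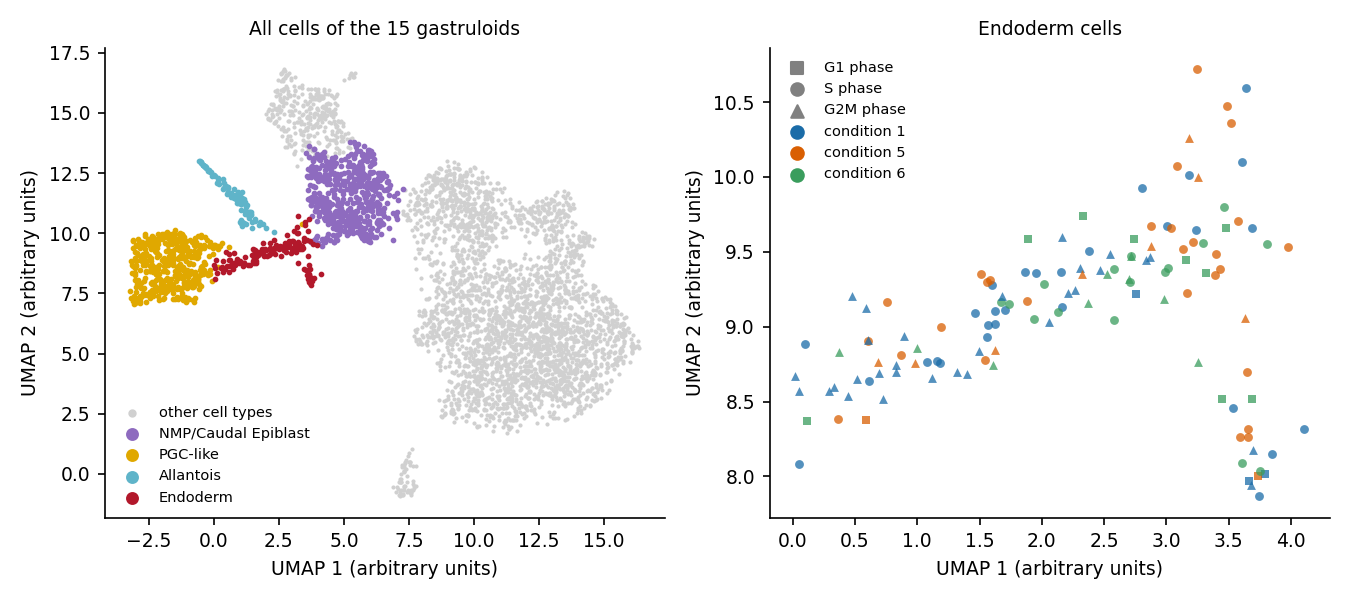
Left, all 4637 cells on the authors' UMAP (both axes in arbitrary units), with Endoderm, PGC-like, NMP/Caudal Epiblast and Allantois cells in colour. Right, the 134 Endoderm cells alone, coloured by condition and marked by phase. The band starts beside the PGC-like cells, where 24 of 45 cells are in G2M. It ends in upper and lower spurs on the side of the NMP/Caudal Epiblast cells, which 14 of the 134 cells had as neighbours.

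By gastruloid, the PGC-like share of the neighbours of Endoderm cells was highest in 1A (8.12%) and 1E (6.67%), and it was 0% in 1B, 5B, 6A, 6B, 6C and 6D. The NMP/Caudal Epiblast share was highest in 5A (10.95%) and 6D (7.41%), and 0% in 1B, 1D, 1E, 5D, 6A, 6B and 6E. In 1B, 6A and 6B every neighbour of an Endoderm cell was Endoderm. PGC-like cells took 4.00% ± 3.43 of the neighbours for condition 1 (n = 5), against 1.43% ± 1.01 for condition 5 (n = 4) and 0.970% ± 2.17 for condition 6 (n = 5). None of the 9 comparisons of neighbour shares between conditions was called (exact rank-sum test, lowest p = 0.127, adjusted 0.655), and 0 had an unadjusted p under 0.05.

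Position along the band was scored from 0 at the centre of the PGC-like cells to 1 at the centre of the NMP/Caudal Epiblast cells. The Endoderm cells were divided by it into 3 parts of 45, 44 and 45 cells. A high position did not mean contact with NMP/Caudal Epiblast cells, which were neighbours of 14 of the 134 Endoderm cells. From the PGC-like end to the NMP/Caudal Epiblast end, G2M cells numbered 24, 18 and 5, S cells 19, 22 and 32, and G1 cells 2, 4 and 8. Median counts differed little, at 10456, 9363 and 9512, and so did the median mitochondrial share, at 5.34%, 5.63% and 5.21%. Each part held cells of 12 gastruloids. These counts pool gastruloids, and 1A and 1D held 13 and 11 of the 47 G2M cells, so phase and gastruloid are mixed in them. The gradient in phase was not tested and was uneven between gastruloids. In the 12 gastruloids with both kinds of cells, G2M cells lay −0.0762 ± 0.161 from cells in other phases, nearer to the PGC-like end in 8 and farther in 4. In 1A and 1D, which held the most G2M cells, these lay −0.115 and −0.124 from the other Endoderm cells of their gastruloid.

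The conditions filled the band differently in number. The counts, given with the percent of the condition's Endoderm cells, pool gastruloids and were not tested. The part nearer PGC-like cells held 29 from condition 1 (46.8%), 12 from condition 5 (31.6%) and 4 from condition 6 (11.8%). The middle held 19 (30.6%), 5 (13.2%) and 20 (58.8%). The part nearer NMP/Caudal Epiblast cells held 14 (22.6%), 21 (55.3%) and 10 (29.4%). Gastruloids 1A and 1D, with mean positions of 0.498 and 0.368, held 42 of the 62 cells of condition 1. Per gastruloid, the mean position averaged 0.476 ± 0.0837 for condition 1 (n = 5), 0.553 ± 0.0248 for condition 5 (n = 4) and 0.567 ± 0.0718 for condition 6 (n = 5). The ranges overlapped, with 0.368 to 0.554, 0.518 to 0.577 and 0.456 to 0.636. Among Endoderm cells only, 12.2% of the 15 nearest neighbours came from the same gastruloid, where the make-up of the cells alone would give 8.66%, and 40.4% came from the same condition, where it would give 35.4%. The same-condition share was 51.1% against 45.9% for condition 1, 29.6% against 27.8% for condition 5 and 33.1% against 24.8% for condition 6. Some gastruloids filled only a short stretch of the band, with the 4 cells of 6B between 0.614 and 0.657 and the 7 cells of 6A between 0.564 and 0.661.

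A second grouping of the cells in the deposited table, whose meaning the sources used here do not give, set nearly the same cells apart. Its group 12 held 131 cells, of which 121 were Endoderm and 10 PGC-like. The other 13 Endoderm cells fell in group 0 (8 cells), group 4 (3 cells) and group 13 (2 cells). Both cells in group 13 came from 6D and were in G1, with 9.97% and 0.140% mitochondrial transcripts.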

How the data were processed

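The cells came from 15 single gastruloids (5 per condition), whose labels give condition and replicate number. Per the study's methods and the submitters' processing notes, the authors trimmed CEL-seq2 reads with cutadapt 4.1, mapped them with STAR 2.5.3a to GRCm38 with masked strain differences (SAMtools 1.15.1 is also listed), counted genes, removed duplicates and low-quality cells, regressed out counts, mitochondrial percentage and phase, and clustered with the Leiden algorithm in Scanpy. The deposited table gives a total count and a gene count per cell as whole numbers without normalization, the mitochondrial fraction, which was multiplied to percent, and an S score and G2M score from the authors, which have no unit and whose making is not given in the sources used here. The deposited UMAP coordinates are scores in arbitrary units. Names of 7 of the 11 deposited cell types were replaced by those of the study's figures.

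The mESC table and sequencing reports were not used. Without counts per gene, thinning of cells and doublet calls were not possible here, and no gene is named with a value. Endoderm cells (leiden 9) were compared with other cells within gastruloids holding at least 3 of each by exact two-sided sign-flip tests of the mean difference (medians of counts, genes and mitochondrial percentage, means of scores, shares of phases), and conditions by exact two-sided Wilcoxon rank-sum tests. Shares were multiplied by 3 pairs, other p-values adjusted by Benjamini-Hochberg within each family, and called under 0.05. Correlations used 100000 permutations, seed 1. Intervals for single shares are Wilson intervals at 95% and cover counting error only. Between conditions the differences given are of means, while their intervals are Hodges-Lehmann intervals of the shift from the rank-sum test. Matched cells had counts within a factor of 1.25 (all other cells) or 1.5 (similar types). The members, measures and tests were chosen with earlier results of these data known. Alternatives were minimum counts of 1000, a maximum of 10% mitochondrial reads, other denominators and weights, exchanged means and medians, minimum cell numbers, other tests, matched counts, 5 or 30 neighbours, a replicate block and leaving out each gastruloid. Python 3.11.15, numpy 2.4.6, pandas 2.3.3, scipy 1.17.1 and matplotlib 3.10.9 were used, and the tests were checked on simulated data.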

Additional observations from a re-analysis of the deposited data

Results flagged for a closer look

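Of 39 groups of 4 or 5 gastruloids of 1 condition examined with Dixon's ratio, 2 held a gastruloid far from the others, where chance alone gives about 1 in 20. In 1B, 2 of 8 Endoderm cells were in G1, so the Endoderm G1 share exceeded that of the other cells by 21.6 points, far above the other 4 gastruloids of condition 1 (ratio 0.841, critical value 0.71). In 6E, PGC-like cells took 4.85% of the neighbours of Endoderm cells, and 0% in the other 4 gastruloids of condition 6 (ratio 1). With those 4 values at 0 the ratio is 1 for any value above 0, so it says nothing of the size.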

How the results depend on the processing

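Of 807 alternative values of 44 results, 713 kept their direction and their side of the threshold (for counts of calls, stayed within 1.5 times), 16 newly passed it, 28 no longer did, 7 counts moved by over 1.5 times and 43 values turned their direction. The cause was not tested unless named. With the deposited endoderm class, the share in condition 1 exceeded that in condition 6 by 4.79 points and was called, because the class adds the Allantois cells. Without single gastruloids the share differences ran from 0.784 to 2.23 points (condition 1 minus 5), 1.06 to 2.501 (1 minus 6) and −0.227 to 0.785 (5 minus 6), none called. With the replicate block (same-numbered gastruloids paired) they stayed at 1.63, 1.91 and 0.276 points (exact p times 3 = 0.750, 0.563 and 1), and 0 of the 27 Endoderm differences between conditions were called. Deviations of the cell type shares of same-numbered gastruloids correlated over 0.1 in 7 of 15 pairs (r from −0.505 to 0.340, median r = −0.0147). So wide a range cannot show whether same-numbered gastruloids shared a culture or a day. Differences between Endoderm and other cells that were newly called were the mitochondrial share with at least 1000 counts (0.438 points, 2 measures called), counts (0.30 on the log2 scale), genes (0.24) and mitochondrial share (0.801 points) with equal weight of each cell type (4 measures called), genes with at least 5 Endoderm cells (0.12, 2 measures called), genes (0.12) and mitochondrial share (0.406 points) with at least 1 (3 measures called), and genes among cells of matched counts (0.0379). Without single gastruloids, 1 to 2 measures were called, with genes at 0.0838 to 0.132 (called without 6B) and the mitochondrial share at 0.332 to 0.491 points (called without 6A). Genes at matched counts against all other cells was called in every run that gave it (0.03 to 0.04). Of the 27 differences from similar types, 13 were called, 6 among cells of matched counts, where counts were fixed by construction and fewer cells entered, and 10 to 14 without single gastruloids. Endoderm genes against PGC-like cells went from −0.0818 to 0.0271 among cells of matched counts and were then called, the only turned value that was called in either run. Other turned values, none called, were the G1 share (−4.92 points) and G2M score (0.00327) against other cells with equal weights, the G2M score with means and medians exchanged (0.000942), the S score among matched cells (−0.000931) and, with Allantois left out, the S score (−0.000815) and S share (−0.489 points). Against similar types they were genes against NMP/Caudal Epiblast (−0.00739) and the G2M share against Allantois (−0.556 points) with at least 1000 counts, genes at matched counts against Allantois with at least 5 cells (0.00831), and, among matched cells, the G2M share against PGC-like (0.276 points) and Allantois (−14.7 points). Without single gastruloids the values that turned ran from −0.00140 to 0.00277 (S score) and −1.999 to 2.48 points (S share) against other cells, −0.135 to 0.00889 (counts), −0.0382 to 0.0310 (genes) and −0.00632 to 0.000616 (G2M score) against NMP/Caudal Epiblast, and −2.83 to 5.29 points (G2M share) and −0.0397 to 0.0203 (genes at matched counts) against Allantois. The relation of Endoderm and PGC-like shares, and its alternatives, were chosen after seeing the data, as were conditions 5 and 6 combined (1.77 points, exact p = 0.310) and Allantois left out. Within conditions its r was 0.866 with at least 1000 counts, 0.865 with the second grouping and 0.836 to 0.885 without each gastruloid. These runs were not adjusted over the cell types. Depth limits the rest: 3 to 23 Endoderm cells per gastruloid leave phase shares imprecise.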
